A study of Mus musculus with 10 samples.

Results

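Stearoyl-CoA desaturases and the enzymes that build and lengthen fatty acids were examined in mouse hearts in which PDK1 was missing from adipocytes. The genes were chosen by symbol, with the FPKM difference of Scd4 and the other results of this genotype comparison already known, so their differences between genotypes are given as a description, with no test. The 10 symbols were Scd1, Scd2, Scd4, Fasn, Acaca, Acacb, Acly, Elovl1, Elovl5 and Elovl6. Of these, 8 are among the 11790 genes of the deposited table, and Acaca and Elovl6 are not analysed here.

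The tested hearts came from 5 A-PDK1KO mice, which lack 3-phosphoinositide-dependent kinase 1 (PDK1, encoded by Pdpk1) in adipocytes, and the comparison hearts came from 5 control mice carrying PDK1 flox/flox without that deletion. All mice were 10 to 11 weeks old and randomly fed when killed, and the labels name no treatment. The sources used here do not state the Cre driver, the sex of the mice or a batch. Levels are FPKM (fragments per kilobase of gene, corrected for library size), which can be compared between genes because they are per length. The deletion lies in adipocytes and cannot be read from whole-heart RNA. Pdpk1 stood at 2.73, 4.04, 3.64, 3.70 and 3.17 FPKM in A-PDK1KO hearts, against 3.77, 3.77, 3.54, 3.54 and 3.14 FPKM in control hearts. The groups overlapped, with a difference of -0.04 on the log2(FPKM + 1) scale (exact two-sided permutation p = 0.714, n = 5 each; the smallest p the design allows is 0.00794).

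Fatty acid synthesis starts in the cytosol, where ATP citrate lyase (Acly) splits citrate to give acetyl-CoA and an acetyl-CoA carboxylase makes malonyl-CoA from it. Fatty acid synthase (Fasn) joins these units into palmitate, elongases (Elovl genes) lengthen the chain in the endoplasmic reticulum, and stearoyl-CoA desaturases put the first double bond into saturated chains, giving mainly oleate and palmitoleate. In the heart, which burns far more fat than it makes, malonyl-CoA is best known as the inhibitor of the mitochondrial uptake of fatty acids, and Acacb encodes the carboxylase at the mitochondrial surface. The mouse has a cluster of Scd genes, and Scd4 is known as its heart isoform.

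The Scd genes lie side by side on chromosome 19 of the mm10 build, and their coding sequences are close enough that it matters which reads can be told apart. Scd2 (ENSMUSG00000025203) covers chr19:44293674-44306864 on the plus strand, Scd4 (ENSMUSG00000050195) chr19:44333092-44346743 on the plus strand, and Scd1 (ENSMUSG00000037071) chr19:44394455-44407879 on the minus strand. Over aligned coding bases Scd4 was 85.1% identical to Scd1 and 83.8% identical to Scd2, and Scd1 and Scd2 were 90.3% identical to each other. The longest stretch without a difference ran to 116 bases for Scd4 and Scd1 and to 98 bases for Scd4 and Scd2. The most alike 90 bases of coding sequence, from GENCODE release M21, are shown first because reads from them can hardly be assigned to a gene; they hold a histidine-rich motif of the enzyme's iron-binding centre. Capitals mark the column at which the 3 sequences differ.
Scd4, coding bases 418 to 507: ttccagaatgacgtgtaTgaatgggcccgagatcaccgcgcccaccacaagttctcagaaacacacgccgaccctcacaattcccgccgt
Scd1, coding bases 424 to 513: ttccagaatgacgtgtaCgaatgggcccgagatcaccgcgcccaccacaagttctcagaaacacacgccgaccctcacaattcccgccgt
Scd2, coding bases 433 to 522: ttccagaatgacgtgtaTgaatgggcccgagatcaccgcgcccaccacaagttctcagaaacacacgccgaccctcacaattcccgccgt

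The least alike 90 coding bases of the same genes are shown next, because reads from them separate Scd4 from its neighbours. There 29 columns differ among the 3 genes, again in capitals, and Scd1 differs from Scd4 at 23 of them and Scd2 differs from Scd4 at 26.
Scd4, coding bases 284 to 373: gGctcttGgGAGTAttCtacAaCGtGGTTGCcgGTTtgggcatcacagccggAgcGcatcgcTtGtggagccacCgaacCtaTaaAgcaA
Scd1, coding bases 290 to 379: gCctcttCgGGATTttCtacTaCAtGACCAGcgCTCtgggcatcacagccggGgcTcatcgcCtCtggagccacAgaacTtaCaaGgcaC
Scd2, coding bases 299 to 388: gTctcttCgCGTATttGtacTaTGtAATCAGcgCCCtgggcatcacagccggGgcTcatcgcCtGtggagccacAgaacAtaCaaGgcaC

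Over the whole transcripts, 206 of 3718 stretches of 50 bases in Scd4 (5.54%) also occur in transcripts of another gene, as do 223 of 4888 in Scd1 (4.56%) and 217 of 5461 in Scd2 (3.97%). The counting could split or drop reads of that small part, and the rest of each transcript is its own at that length. Of the other genes, Elovl1 shared 0.139% of its stretches, with Cdc20 on the opposite strand, and Fasn, Acacb, Acly and Elovl5 shared none. Whether reads were counted by strand is unknown here, so reads of the small part Elovl1 shares with Cdc20 cannot be told apart. The span of Acacb holds the pseudogene Gm13784 on the opposite strand. Of the 9583 stretches of Acacb, 0 occur in its transcript on either strand. Scd2 overlaps the microRNA gene Mir5114 and Acly overlaps Mir7116.

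Scd4 was the desaturase whose groups lay apart, lower in A-PDK1KO hearts. Its level was 1.30, 1.66, 1.08, 2.03 and 2.54 FPKM in the A-PDK1KO hearts, against 2.90, 4.97, 4.88, 4.50 and 8.17 FPKM in the control hearts. Every A-PDK1KO heart lay below the lowest control heart. The mean was 1.72 ± 0.581 FPKM in A-PDK1KO hearts and 5.09 ± 1.92 FPKM in control hearts (SD, n = 5 each), 2.95-fold lower in A-PDK1KO, a log2(FPKM + 1) difference of -1.13 ± 0.20 (SE). The reads behind these values numbered 45 to 99 per A-PDK1KO heart and 101 to 330 per control heart. The nearest hearts were A-PDK1KO replicate 5, with 99 reads (95% counting interval 80.5 to 120.5), and control replicate 1, with 101 reads (82.3 to 122.7). Their intervals overlapped. In this bulk tissue fewer cells that hold a transcript and less of it per cell cannot be told apart.

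The size of the Scd4 difference was set beside the features that varied between hearts. Leaving out each heart in turn gave differences of -1.28 to -0.97. The amount of atrial tissue varied: Myl7, the atrial myosin light chain, was at or above 10 FPKM in A-PDK1KO replicates 3 and 5 and control replicates 2 and 5. Among these 4 hearts Scd4 averaged 1.81 FPKM in A-PDK1KO and 6.57 FPKM in control, 3.63-fold lower in A-PDK1KO. Among the 3 A-PDK1KO and 3 control hearts with less Myl7 it averaged 1.66 FPKM in A-PDK1KO and 4.09 FPKM in control hearts. That was 2.46-fold lower in A-PDK1KO. Because the groups lay apart over all hearts, no subset of them could overlap. In the smaller set of 6 hearts the log2 difference was -0.92.

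**Figure D1:**
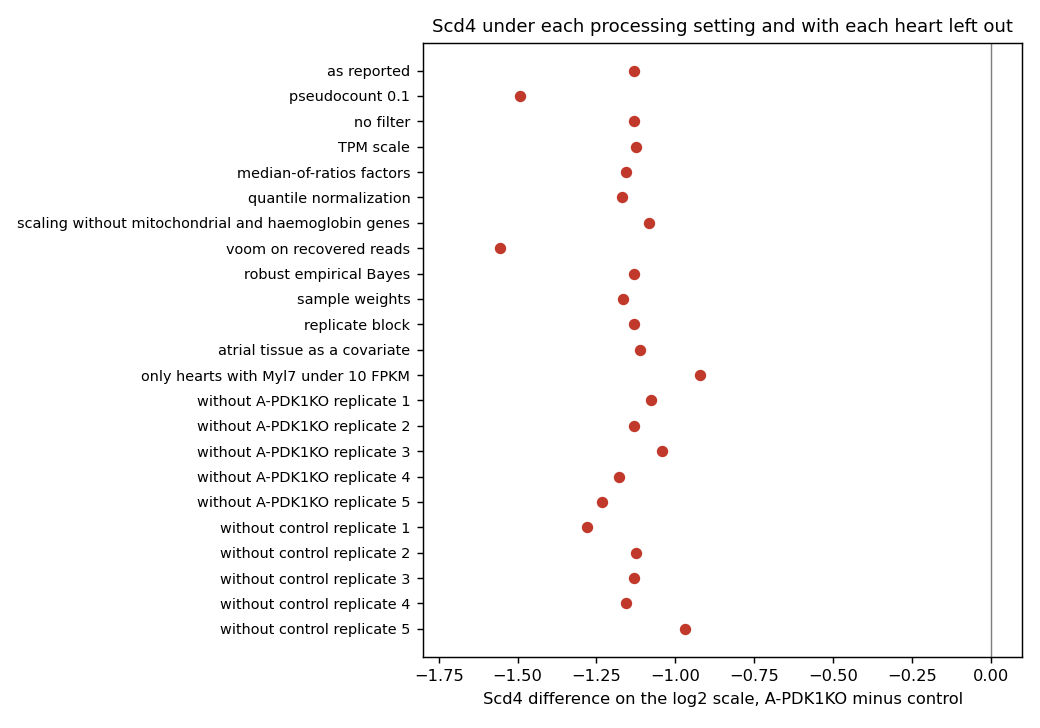
Scd4 difference between A-PDK1KO and control hearts on the log2 scale (x axis) under each processing setting and with each heart left out (rows). The values run from -1.55 with voom on recovered reads to -0.92 in the 6 hearts with little Myl7, all below 0. The rows for no filter, robust empirical Bayes and the replicate block repeat the reported value, which they cannot change. Leaving out hearts cannot change the sign, since the groups did not overlap.

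Scd1 and Scd2, the isoforms known from liver and fat and from brain, did not share the Scd4 pattern. Scd1 was at 2.81, 2.71, 2.72, 2.80 and 3.04 FPKM in A-PDK1KO hearts, against 2.17, 2.88, 2.54, 1.92 and 2.75 FPKM in control hearts. Control replicates 2 and 5 fell within the narrow A-PDK1KO range and the other 3 control hearts lay below it. The means were 2.82 ± 0.134 FPKM in A-PDK1KO and 2.45 ± 0.400 FPKM in control hearts (SD, n = 5 each), a log2 difference of 0.15 ± 0.09 (SE). Those 2 control hearts are the ones with more atrial tissue. Among the 6 hearts with little Myl7, Scd1 averaged 2.77 FPKM in A-PDK1KO and 2.21 FPKM in control hearts. Among the hearts with more Myl7 it averaged 2.88 FPKM in A-PDK1KO and 2.82 FPKM in control hearts. With only 3 or 2 hearts per group, nothing is read from these averages.

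Scd2 was at 2.96, 2.87, 3.68, 2.67 and 3.25 FPKM in A-PDK1KO hearts, against 2.00, 3.21, 2.49, 3.62 and 3.26 FPKM in control hearts. The ranges lay across each other, and control replicate 1 was the lowest of the 10 hearts. The means were 3.09 ± 0.392 FPKM in A-PDK1KO and 2.92 ± 0.656 FPKM in control hearts (SD, n = 5 each), a log2 difference of 0.07 ± 0.12 (SE).

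Because Scd4 was low while its neighbours were not, the order of the desaturases differed between the genotypes. Scd3, also of this family, is not analysed here. Scd4 was the lowest of the 3 isoforms analysed in 5 of 5 A-PDK1KO hearts and the highest in 5 of 5 control hearts. It made up 18.4%, 22.9%, 14.5%, 27.0% and 28.7% of the summed Scd FPKM in A-PDK1KO hearts, against 41.0%, 44.9%, 49.2%, 44.8% and 57.6% in control hearts. The mean share was 22.3% ± 5.94 in A-PDK1KO and 47.5% ± 6.35 in control hearts (SD, n = 5 each), and the groups did not overlap. The sum of the 3 isoforms averaged 7.62 ± 0.696 FPKM in A-PDK1KO and 10.5 ± 2.56 FPKM in control hearts, and here the groups overlapped through control replicate 1, at 7.06 FPKM. The sum of Scd1 and Scd2 alone averaged 5.90 ± 0.420 FPKM in A-PDK1KO and 5.37 ± 0.796 FPKM in control hearts.

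**Figure D2:**
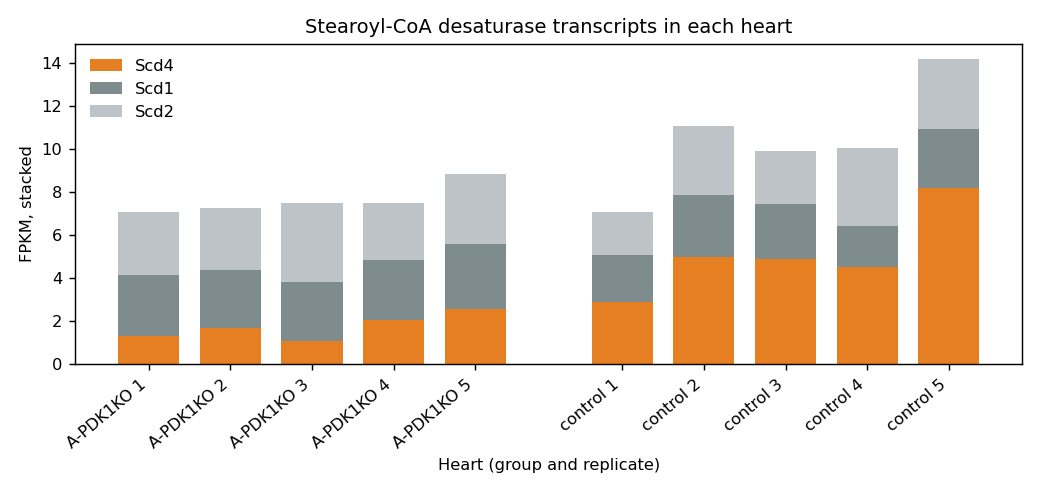
FPKM of Scd4 (bottom), Scd1 (middle) and Scd2 (top) as stacked bars, 1 bar for each of the 10 hearts, with A-PDK1KO replicates left of control replicates. Scd4 lies between 1.08 and 2.54 FPKM in the A-PDK1KO hearts and between 2.90 and 8.17 FPKM in the control hearts, whereas the ranges of Scd1 and Scd2 overlap between the genotypes.

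The enzymes that supply malonyl-CoA were close in the genotypes. Acacb (chr5:114146535-114250761, plus strand) was the most abundant of the 8 genes, at 31.2, 35.4, 31.6, 37.9 and 32.9 FPKM in A-PDK1KO hearts, against 29.1, 32.1, 36.7, 37.6 and 30.3 FPKM in control hearts. The ranges covered almost the same span, and the means were 33.8 ± 2.82 FPKM in A-PDK1KO and 33.2 ± 3.81 FPKM in control hearts (SD, n = 5 each), a log2 difference of 0.03 ± 0.08 (SE). Acly (chr11:100476353-100528000, minus strand), the citrate-splitting enzyme, was at 5.29, 4.88, 4.61, 6.27 and 4.79 FPKM in A-PDK1KO hearts, against 4.92, 5.40, 4.93, 4.90 and 4.47 FPKM in control hearts. A-PDK1KO replicate 4 was the highest heart and control replicate 5 the lowest. The log2 difference of Acly was 0.05 ± 0.08 (SE), from means of 5.17 ± 0.665 FPKM in A-PDK1KO and 4.92 ± 0.328 FPKM in control hearts (SD, n = 5 each).

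Fasn, the synthase itself, was the least abundant of the 8 genes and stood close to the filter, an average of 1 FPKM over all hearts. It lies at chr11:120805846-120824547 on the minus strand. Its level was 0.781, 0.815, 1.01, 1.12 and 1.02 FPKM in A-PDK1KO hearts, against 0.998, 1.04, 1.19, 1.12 and 1.12 FPKM in control hearts. A-PDK1KO replicates 1 and 2 lay below the lowest control heart and the other 3 lay within the control range. The means were 0.950 ± 0.146 FPKM in A-PDK1KO and 1.09 ± 0.0777 FPKM in control hearts (SD, n = 5 each), a log2 difference of -0.10 ± 0.08 (SE). Its long transcript gave 82 to 140 reads per A-PDK1KO heart and 101 to 131 per control heart.

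The elongases leaned in opposite directions, each with overlapping groups. Elovl1 (chr4:118428093-118432953, plus strand) encodes an elongase of saturated and monounsaturated very long chains. It was at 5.55, 5.57, 4.88, 4.00 and 4.32 FPKM in A-PDK1KO hearts, against 3.93, 4.31, 4.09, 4.55 and 3.25 FPKM in control hearts. A-PDK1KO replicates 1, 2 and 3 lay above the highest control heart, and the means were 4.86 ± 0.7097 FPKM in A-PDK1KO and 4.03 ± 0.492 FPKM in control hearts (SD, n = 5 each), a log2 difference of 0.22 ± 0.10 (SE). Elovl5 (chr9:77917364-77984519, plus strand) encodes an elongase of polyunsaturated chains. It was at 7.64, 7.95, 5.55, 5.29 and 6.20 FPKM in A-PDK1KO hearts, against 6.66, 6.58, 8.54, 7.11 and 7.45 FPKM in control hearts. A-PDK1KO replicates 3, 4 and 5 lay below the lowest control heart while the other 2 lay within the control range. The means of Elovl5 were 6.53 ± 1.21 FPKM in A-PDK1KO and 7.27 ± 0.793 FPKM in control hearts (SD, n = 5 each), a log2 difference of -0.15 ± 0.11 (SE).

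**Figure D3:**
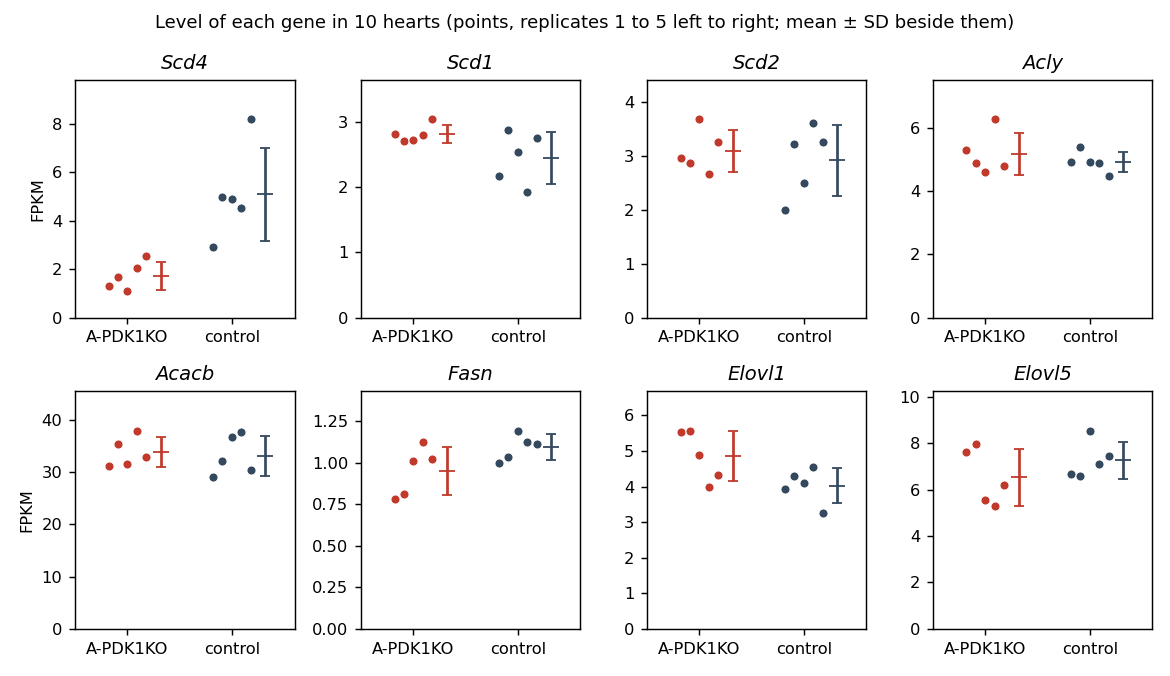
FPKM of each of the 8 genes in every heart, A-PDK1KO left and control right, with the mean and SD of each group. Scd4 is the gene whose groups do not overlap, with means of 1.72 FPKM in A-PDK1KO and 5.09 FPKM in control hearts.

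The order of the FPKM levels in A-PDK1KO hearts was Acacb, Elovl5, Acly, Elovl1, Scd2, Scd1, Scd4 and Fasn, from highest to lowest. In control hearts it was Acacb, Elovl5, Scd4, Acly, Elovl1, Scd2, Scd1 and Fasn, so Scd4 held the third place there. Neighbours whose ranges did not overlap were Acacb and Elovl5, Elovl1 and Scd2, and Scd1 and Scd4 in A-PDK1KO hearts, and Acacb and Elovl5, and Scd1 and Fasn in control hearts. The other neighbours in each order overlapped.

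The 8 genes were read against all genes of the table. With limma on log2(FPKM + 1), 9987 genes averaging 1 FPKM or more were tested and 208 (2.08%) were called at an adjusted p under 0.05, 121 higher (1.21%) and 87 lower (0.871%) in A-PDK1KO hearts. Scaling to the table without mitochondrially encoded and haemoglobin genes gave 323 higher and 67 lower. With each heart left out the count of called genes ranged from 57, without A-PDK1KO replicate 5, to 150, with 62 in the absence of A-PDK1KO replicate 3, 106 of A-PDK1KO replicate 1, 77 of control replicate 3, 96 of control replicate 5 and 123 of control replicate 1. All 8 genes passed the filter, 1 was called, Scd4, and 7 were not. The groups did not overlap for 1 of the 8, again Scd4, and for 495 of the 9987 genes (4.96%). Since Scd4 was known to differ when the genes were chosen, nothing is read from these counts. The median log2 difference was 0.04 over the 8 genes, with 5 above 0, and 0.02 over all genes tested, with 54.6% above 0. Apart from Scd4 the differences ran from -0.15 to 0.22.

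Related genes outside the 8 were sorted into 7 lists of 91 symbols, of which 78 are in the table and 74 were tested with limma. 1 was called, lower in A-PDK1KO hearts, and 73 were not, while 11 were higher and 5 lower at an unadjusted p under 0.05. These are 16 of 74, or 21.6%, beside 1554 of the 9987 genes tested, or 15.6%. The related genes at that level are all named below, and those not named for their level or call were picked after their values were seen. The median log2 difference was 0.06, with 51 of 74 above 0. The called gene was Hacd1, a dehydratase of the elongation cycle that is known for its expression in muscle. Hacd1 was at 6.55, 7.17, 6.20, 6.10 and 7.93 FPKM in A-PDK1KO hearts, against 9.75, 8.61, 8.98, 9.92 and 9.17 FPKM in control hearts. The groups did not overlap, and Hacd1 fell by 0.40 ± 0.08 on the log2 scale (SE; limma adjusted p = 0.0255), with means of 6.79 ± 0.765 FPKM in A-PDK1KO and 9.29 ± 0.541 FPKM in control hearts (SD, n = 5 each). The call was lost on the TPM scale (adjusted p = 0.0775), in the 6 hearts with little Myl7 (0.238) and without A-PDK1KO replicate 1, 3 or 4 or control replicate 1, 3 or 5, where the adjusted p reached 0.0678.

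**Figure D4:**
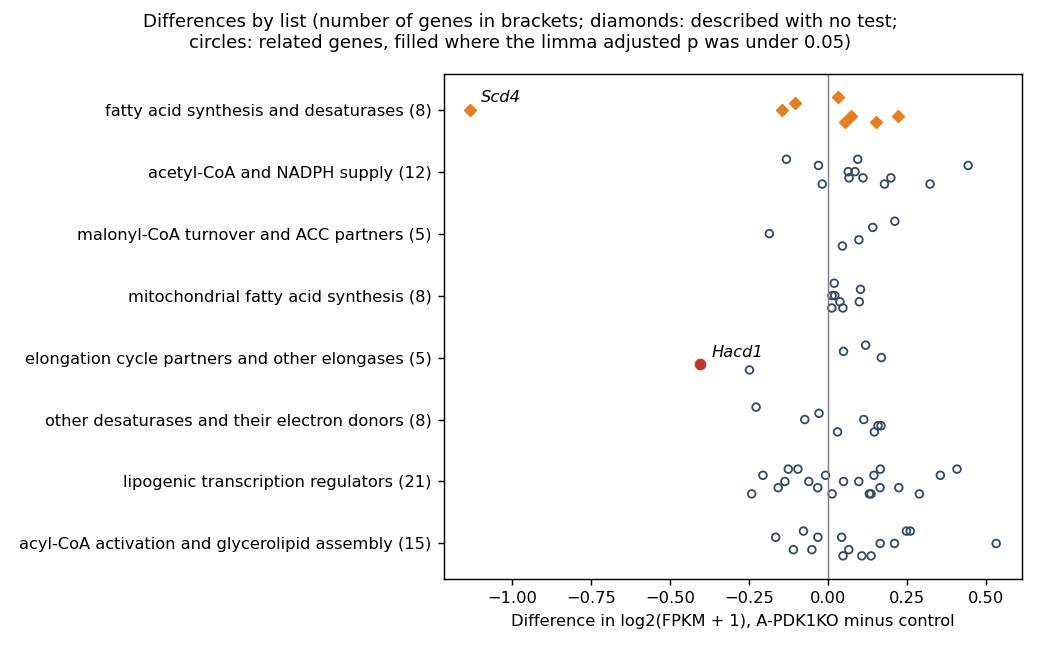
Difference in log2(FPKM + 1), A-PDK1KO minus control, of the 8 fatty acid synthesis genes (diamonds, described with no test) and of each tested gene of the 7 related lists (circles). Scd4 lies at -1.13, and the filled circle is Hacd1, at -0.40, the related gene called by limma at an adjusted p under 0.05.

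Of the other 4 tested partners of the elongation cycle, Hsd17b12, the ketoacyl-CoA reductase, had means of 4.71 ± 0.547 FPKM in A-PDK1KO and 5.78 ± 0.476 FPKM in control hearts (SD, n = 5 each). Its groups did not overlap, with a log2 difference of -0.25 and a limma adjusted p of 0.18. Tecr, the enoyl-CoA reductase, averaged 110.4 ± 3.89 FPKM in A-PDK1KO and 102.2 ± 12.2 FPKM in control hearts, and Hacd3 averaged 7.07 ± 0.457 FPKM in A-PDK1KO and 6.82 ± 0.732 FPKM in control hearts (SD, n = 5 each). Neither was called. Over the 5 tested genes of the list, 3 were above 0 and the median was 0.05.

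Other desaturases and the proteins that pass electrons to them had 0 of 8 genes called by limma, with 0 higher and 1 lower at an unadjusted p under 0.05 and a median of 0.07. The lower gene was Cyb5a, cytochrome b5, the electron donor of the stearoyl-CoA desaturases. Cyb5a averaged 13.4 ± 1.48 FPKM in A-PDK1KO and 15.9 ± 1.56 FPKM in control hearts (SD, n = 5 each), with a limma adjusted p of 0.226. Its reductase Cyb5r3 averaged 14.9 ± 1.02 FPKM in A-PDK1KO and 14.0 ± 3.18 FPKM in control hearts, and Degs1, the ceramide desaturase, averaged 13.7 ± 1.22 FPKM in A-PDK1KO and 14.0 ± 0.702 FPKM in control hearts (SD, n = 5 each).

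Genes of acetyl-CoA and NADPH supply had 0 of 12 called by limma, with 4 higher and 0 lower at an unadjusted p under 0.05 and a median of 0.09. The most abundant were Idh2, the mitochondrial NADP isocitrate dehydrogenase, citrate synthase Cs and Acss1, the mitochondrial acetyl-CoA synthetase. Idh2 averaged 564 ± 45.3 FPKM in A-PDK1KO and 532 ± 88.4 FPKM in control hearts, Cs 161 ± 7.34 FPKM in A-PDK1KO and 155 ± 21.7 FPKM in control hearts, and Acss1 84.5 ± 8.62 FPKM in A-PDK1KO and 78.5 ± 11.9 FPKM in control hearts (SD, n = 5 each). The genes at an unadjusted p under 0.05 were Idh1, the cytosolic form, the malic enzyme Me3, the citrate carrier Slc25a1 and G6pdx, of the pentose phosphate pathway. Idh1 was at 13.8, 22.7, 13.1, 15.2 and 18.3 FPKM in A-PDK1KO hearts, against 11.5, 11.4, 11.0, 12.4 and 12.6 FPKM in control hearts. Its groups did not overlap, but it was not called (log2 difference 0.44 ± 0.12 (SE), limma adjusted p = 0.101). The log2 differences were 0.18 for Me3, whose groups also did not overlap, 0.32 for Slc25a1 and 0.20 for G6pdx, with limma adjusted p of 0.204, 0.236 and 0.301.

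Malonyl-CoA turnover and the partners of the carboxylases had 0 of 5 genes called by limma, with 0 higher and 0 lower at an unadjusted p under 0.05 and a median of 0.10. Cpt1b, of mitochondrial fatty acid uptake, was also on this list but averaged under 1 FPKM and was not tested. Overlap with other genes was not examined for the related genes, so whether reads of Cpt1b were lost in the counting is unknown. Mlycd, malonyl-CoA decarboxylase, averaged 62.6 ± 5.31 FPKM in A-PDK1KO and 60.6 ± 3.82 FPKM in control hearts (SD, n = 5 each). Mid1ip1, which promotes carboxylase polymerization, averaged 63.3 ± 7.61 FPKM in A-PDK1KO and 58.9 ± 5.61 FPKM in control hearts, and its relative Thrsp averaged 8.51 ± 1.67 FPKM in A-PDK1KO and 9.79 ± 1.77 FPKM in control hearts (SD, n = 5 each). The separate mitochondrial route of fatty acid synthesis, which supplies lipoic acid, had 0 of 8 called and 0 at an unadjusted p under 0.05 in either direction, with a median of 0.03. Its acyl carrier protein Ndufab1 averaged 50.7 ± 1.31 FPKM in A-PDK1KO and 50.1 ± 2.55 FPKM in control hearts, its malonyltransferase Mcat 12.2 ± 1.15 FPKM in A-PDK1KO and 12.2 ± 1.84 FPKM in control hearts, and lipoate synthase Lias 8.20 ± 1.05 FPKM in A-PDK1KO and 8.10 ± 0.709 FPKM in control hearts (SD, n = 5 each).

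Transcription regulators of lipid synthesis had 0 of 21 called by limma, with 4 higher and 1 lower at an unadjusted p under 0.05 and a median of 0.05. The most abundant were the nuclear receptor partners Rxra and Rxrb and the factor Usf2. Rxra averaged 13.9 ± 1.04 FPKM in A-PDK1KO and 12.3 ± 0.968 FPKM in control hearts, Rxrb 9.23 ± 0.971 FPKM in A-PDK1KO and 10.2 ± 0.718 FPKM in control hearts, and Usf2 13.3 ± 0.934 FPKM in A-PDK1KO and 13.7 ± 2.09 FPKM in control hearts (SD, n = 5 each). Srebf1 encodes the sterol-regulated factor that drives many of the genes described here. It was at 2.67, 2.97, 2.51, 2.67 and 2.86 FPKM in A-PDK1KO hearts, against 1.90, 2.01, 1.72, 2.92 and 1.86 FPKM in control hearts. Control replicate 4 lay within the A-PDK1KO range and the other 4 control hearts lay below it, and Srebf1 was not called (log2 difference 0.29, limma adjusted p = 0.187). Insig1, a brake on that factor and among its targets, averaged 4.56 ± 1.09 FPKM in A-PDK1KO and 3.15 ± 0.492 FPKM in control hearts (SD, n = 5 each), and it was not called (limma adjusted p = 0.163). Nfyb, a subunit of the CCAAT-binding factor NF-Y, averaged 2.84 ± 0.638 FPKM in A-PDK1KO and 1.99 ± 0.352 FPKM in control hearts (SD, n = 5 each; log2 difference 0.35, limma adjusted p = 0.173). Nr1h3, the oxysterol receptor LXR alpha that activates Srebf1 and Scd genes in liver, was the lower gene. It averaged 5.27 ± 0.879 FPKM in A-PDK1KO and 6.39 ± 0.772 FPKM in control hearts (SD, n = 5 each; log2 difference -0.24, limma adjusted p = 0.298).

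Acyl-CoA activation and glycerolipid assembly had 0 of 15 called by limma, with 3 higher and 1 lower at an unadjusted p under 0.05 and a median of 0.07. Dgat2, which adds the last acyl chain of triglyceride, averaged 136 ± 9.62 FPKM in A-PDK1KO and 114 ± 13.3 FPKM in control hearts (SD, n = 5 each), a log2 difference of 0.26 (limma adjusted p = 0.138). Acsl1, the main acyl-CoA synthetase of heart, averaged 78.7 ± 6.45 FPKM in A-PDK1KO and 73.3 ± 9.37 FPKM in control hearts, and the acyltransferase Gpam averaged 39.2 ± 5.26 FPKM in A-PDK1KO and 35.4 ± 2.72 FPKM in control hearts (SD, n = 5 each). Lpin1, a phosphatidate phosphatase, was at 10.8, 12.8, 14.2, 12.0 and 15.6 FPKM in A-PDK1KO hearts, against 6.90, 8.02, 9.66, 11.5 and 7.92 FPKM in control hearts. It had the highest difference of the 74 genes, 0.53 ± 0.13 (SE), and missed the threshold at a limma adjusted p of 0.0528. The acyl-CoA synthetase Acsl6 averaged 1.43 ± 0.105 FPKM in A-PDK1KO and 1.05 ± 0.173 FPKM in control hearts (SD, n = 5 each), without overlap (log2 difference 0.25, limma adjusted p = 0.177). The acyltransferase Agpat1, the lower gene at an unadjusted p under 0.05, averaged 13.7 ± 0.927 FPKM in A-PDK1KO and 15.5 ± 1.39 FPKM in control hearts (SD, n = 5 each; log2 difference -0.17, limma adjusted p = 0.312). In each of the lists with 0 called genes, limma voom on the recovered reads also called 0.

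The neighbourhood of Scd4 was then described. Within 250 kb on either side the table holds 9 genes, Scd2 26.2 kb away and Scd1 47.7 kb away among them. Besides the desaturases 5 of them were tested, Chuk, Bloc1s2, Sec31b, Ndufb8 and Hif1an, and limma called 0 of these. Ndufb8, a subunit of mitochondrial complex I, averaged 142 ± 5.76 FPKM in A-PDK1KO and 164 ± 11.3 FPKM in control hearts (SD, n = 5 each). Its groups did not overlap, and its log2 difference was -0.21 (limma adjusted p = 0.10).

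Variation among hearts of the same genotype was used to list the genes most like Scd4. Deviations from the group mean were compared over the 10 hearts for 9073 genes, and likeness is Pearson's r, given as a description of the highest values found. The genes nearest to Scd4 were Yipf3 (r = 0.969), Tmem147 (r = 0.911), Smarcd3 (r = 0.909), Higd2a (r = 0.907) and Srp54b (r = 0.878). Those nearest to Scd2 were Tmem115 (r = 0.930), Rpl28-ps1 (r = 0.917), Timp4 (r = 0.900), Abi3 (r = 0.899) and Acy1 (r = 0.898).

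The libraries held 9249256 to 11384422 counted reads, of which mitochondrially encoded transcripts took 34.3% to 41.5% in A-PDK1KO and 32.7% to 40.4% in control hearts. All 7 cardiomyocyte markers were present, and their summed level was 11984 to 13787 FPKM in A-PDK1KO and 12683 to 15291 FPKM in control hearts. Among them Tnni3, cardiac troponin I, was at 1774 to 1957 FPKM in A-PDK1KO and 2050 to 2309 FPKM in control hearts, without overlap (limma adjusted p = 0.0605). The groups of every other cardiomyocyte marker overlapped. The 4 of 5 atrial markers in the table summed to 184 to 268 FPKM in A-PDK1KO and 214 to 579 FPKM in control hearts. Most of that sum was Nppa, the atrial natriuretic peptide, at 230, 234, 139, 267 and 159 FPKM in A-PDK1KO hearts, against 486, 325, 214, 357 and 492 FPKM in control hearts (limma adjusted p = 0.0908). Nppa did not follow Myl7, since control replicate 1 was listed at 0 FPKM for Myl7. Of 12 adipocyte markers 4 are in the table, Cfd, Cidea, Fabp4 and Lpl, and all but Cfd are also known from heart cells. Their sum was 544 to 592 FPKM in A-PDK1KO and 560 to 693 FPKM in control hearts, and Cfd stood at 0 to 1.36 FPKM in A-PDK1KO and 0 to 1.11 FPKM in control hearts. Adipoq, Lep and Plin1 are not analysed here. Endothelial markers (5 of 5) summed to 83.6 to 92.1 FPKM in A-PDK1KO and 78.2 to 93.5 FPKM in control hearts, fibroblast markers (5 of 5) to 106 to 132 FPKM in A-PDK1KO and 111 to 136 FPKM in control hearts, and macrophage markers (5 of 5) to 36.5 to 52.6 FPKM in A-PDK1KO and 43.8 to 50.9 FPKM in control hearts. S100b, the 1 of 5 Schwann cell markers in the table, was at 0.211 to 0.761 FPKM in A-PDK1KO and 0.358 to 1.07 FPKM in control hearts. The hepatocyte and skeletal muscle markers Alb and Acta1, 2 of 5, summed to 188 to 338 FPKM in A-PDK1KO and 189 to 380 FPKM in control hearts. Blood cell markers (5 of 5) summed to 68.6 to 228 FPKM in A-PDK1KO and 27.9 to 1391 FPKM in control hearts, the highest in control replicate 1, which was also the lowest control heart for Scd4. Without that heart the Scd4 difference was -1.28. No tested gene of any marker list was called by limma. Cfd, S100b and Alb averaged under 1 FPKM and were not tested. The part of atrial, blood or muscle RNA in the differences described here, that of Scd4 included, was not tested.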

How the data were processed

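RNA from 10 mouse hearts, 5 A-PDK1KO and 5 control, was grouped by the genotype label. Per the labels' protocols, paired-end reads were assessed with FastQC 0.11.7. The submitters' processing notes list HISAT2 2.1.0, Trimmomatic 0.38, featureCounts 1.6.3 and mm10, with no annotation, strand setting or kit. The deposited values are FPKM, scaled to gene length and library size by the authors, for 11790 genes that each reach about 1 FPKM in some heart. The deposited cluster number of each gene, from 0 to 15, was not used.

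FPKM was converted to log2(FPKM + 1). Genes averaging 1 FPKM or more entered a limma 3.58.1 fit (R 4.3.3; empirical Bayes trend, no covariate, two-sided, A-PDK1KO minus control), adjusted by Benjamini-Hochberg over all 9987 and called under 0.05. Since log2(FPKM + 1) understates the change of low genes, fold differences are ratios of mean FPKM. The labels number the hearts and say nothing of litters or batches. The limma p-values set each difference against the spread between hearts of the same genotype. A litter or batch difference between the groups could not be told apart from a genotype difference. Dividing FPKM by the value of 1 read, with exon lengths from GENCODE release M21, gave whole reads within 0.05 for 98.2% of genes in all hearts. These recovered reads give the depths and an alternative fit by voom. On simulated reads for 9803 genes, limma recovered 60% of genes changed 1.5-fold and 97% changed 2-fold. Of 173 calls, 16 were unchanged genes (9.25%). The simulation gave every gene the same fixed spread between hearts, which was not estimated from these data. The shares may therefore differ for the real genes.

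The members and lists were chosen with earlier results of these data known. The genes named are every member, each called gene of a related list, up to 3 uncalled genes per list of highest mean FPKM, and the defining markers. Related genes at an unadjusted p under 0.05, with Ndufb8, Tnni3 and Nppa, were added after their values were seen. Alternatives were another pseudocount (0.1), other filters, scalings, variance models and thresholds, a replicate block, atrial tissue (Myl7) as a covariate, the hearts with Myl7 under 10 FPKM, and each heart left out. Coding sequences were aligned with MAFFT 7.526.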

Additional observations from a re-analysis of the deposited data

Results flagged for a closer look

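None of the 8 fatty acid synthesis genes had a heart standing apart from the others of its genotype. Of 62 groups of 5 hearts checked over 31 named genes, 7 had a heart whose gap to the nearest other heart was large against the range of its group, and chance gives about 1 in 20. Control replicate 4 was high for Idh2, at 686 FPKM against 463 to 516 FPKM in the other control hearts. Control replicate 1 was low for Mlycd, at 53.8 FPKM against 61.3 to 62.9 FPKM, for Mid1ip1, at 49.2 FPKM against 60.0 to 63.5 FPKM, and for Gpam, at 30.7 FPKM against 36.0 to 37.9 FPKM in the other control hearts. A-PDK1KO replicate 2 was high for Lias, at 10.0139 FPKM against 7.43 to 8.09 FPKM in the remaining hearts of that genotype. A-PDK1KO replicate 1 was low for Hsd17b12, at 3.77 FPKM against 4.81 to 5.18 FPKM, and for Rxrb, at 7.53 FPKM against 9.38 to 9.98 FPKM in the remaining hearts of that genotype.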

How the results depend on the processing

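Of 179 repeat values of the log2 differences of the 8 genes, 176 stayed within the spread between replicates. The exceptions were Fasn at -0.19 with a pseudocount of 0.1 and at -0.20 with voom, and Scd4 at -1.55 with voom. Values of these settings are on other log2 scales than log2(FPKM + 1), so their sizes cannot be compared with the reported ones. The other filters, robust variances and the replicate block cannot change a difference, so their values only repeat the reported ones. Scd4 kept its sign in all values. Leaving out hearts could not alter that sign, since the Scd4 groups did not overlap. The 1 called gene among the 8 became 0 at a minimum of 5 FPKM, which Scd4 does not reach, in the hearts with Myl7 under 10 FPKM and at an adjusted p under 0.01, and ranged from 0 to 1 with each heart left out, 0 being without A-PDK1KO replicate 3. The count of 208 called genes became 63 on the TPM scale, 390 scaled without mitochondrial and haemoglobin genes, 412 with sample weights, 4 in the hearts with Myl7 under 10 FPKM, 369 at an adjusted p under 0.1 and 23 under 0.01, and it ranged from 57 to 150 with each heart left out. The 1 called related gene became 0 on the TPM scale, with the replicate block, in the hearts with Myl7 under 10 FPKM and under 0.01. It became 2 at a minimum of 5 FPKM, with median-of-ratios factors, with robust variances and under 0.1, 3 with quantile normalization and with sample weights, 5 scaled without mitochondrial and haemoglobin genes, and ranged from 0 to 3 with each heart left out. The difference of Pdpk1 was 0.0157 scaled without mitochondrial and haemoglobin genes, and ranged from -0.0826 to 0.0265 with each heart left out. The cause of these shifts was not tested. Same-numbered hearts did not deviate together (correlations -0.12 to 0.09), so the numbers were not taken as pairs. With the replicate block 153 genes were called and the limma adjusted p of Hacd1 was 0.0662. The block cannot change a difference itself, since each number holds 1 heart of each genotype. Scd4 and Fasn rest on 45 to 330 and 82 to 140 reads per heart, which limits the precision of their values.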
